A study of Homo sapiens with 4 samples.

Results

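The 7 genes of the classical transcription factors of the epithelial-mesenchymal transition (EMT), ZEB1, ZEB2, SNAI1, SNAI2, SNAI3, TWIST1 and TWIST2, were examined for H3K27ac, the acetylation of lysine 27 of histone H3 that is found at active promoters and enhancers. They were taken by symbol from the GENCODE annotation on hg19, where they are 7 of 20163 protein-coding genes. A promoter peak is a peak that overlaps the window from 1 kb before to 1 kb after any annotated transcript start of the gene. A distal peak lies within 50 kb of the gene body and outside the same window of every annotated gene, and a peak at the start of another gene is counted apart.

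In EMT, epithelial cells lose cell-cell junctions and apical-basal polarity and gain motility, a process used in development and taken up by carcinomas. ZEB proteins are zinc finger homeobox proteins, SNAI proteins are zinc finger proteins and TWIST proteins are basic helix-loop-helix proteins that pair with E proteins. All bind E-box sequences, and several repress E-cadherin (CDH1). The miR-200 microRNAs target ZEB1 and ZEB2 transcripts and are themselves repressed by the ZEB proteins, so that each side can hold the other down.

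The data are ChIP-seq peak lists of 4 established human carcinoma lines, namely the colon line COLO-205, the prostate line DU-145 and the ovarian lines OVCAR-3 and SKOV-3. COLO-205 and OVCAR-3 were grown in RPMI medium, DU-145 in Eagle minimal essential medium and SKOV-3 in McCoy’s 5a minimal essential medium, all with FBS, and every library used the same antibody. There was 1 library per line and no replicate, so no test between lines was made, and intervals cover counting error only. The lists hold 85576 peaks in COLO-205, 76093 in OVCAR-3, 75468 in DU-145 and 14001 in SKOV-3, called from 29800000, 34200000, 36000000 and 22400000 ChIP tags as recovered from the peak values. Among peaks with a −log10 q under 3.5, the median height of the tag pileup at the summit was 0.638, 0.585, 0.597 and 0.982 per 1000000 ChIP tags (RPM) in that order. An unlisted region therefore means that no peak passed the call in that library, not that acetylation was absent.

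The labels were checked against defining genes of each tissue. In COLO-205, 3 of 5 colon markers had a promoter peak (CDX2, LGALS4, VIL1, but not CDX1 or CDH17), which is 60% against 51.1% of all protein-coding genes, and LGALS4 was also marked in DU-145 and OVCAR-3. In OVCAR-3 all 5 markers of ovary and Mullerian tract had one, against 60.5% of all genes, and in SKOV-3 only PAX8 and SOX17 did, which is 40% against 31.6% of all genes. DU-145 had a promoter peak at the prostate marker TMPRSS2 and none at KLK3, HOXB13 or HOXA13, so these markers do not set it apart as prostate. The lists were not specific to a line, since COLO-205 also had a peak at TMPRSS2, KLK3 and HOXA13 and at 3 of the ovary markers. DU-145 had a peak at 2 ovary markers, as many as SKOV-3, but this is 40% against 59.8% of all genes. PAX8 was marked in all 4 lines, and SOX17 only in OVCAR-3 (17.0-fold) and SKOV-3 (6.93-fold). By peak calls SOX17 was thus the only ovary marker that set SKOV-3 apart from COLO-205 and DU-145.

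A promoter peak was present at 3 of the 7 genes in COLO-205, 2 in OVCAR-3, 4 in DU-145 and 3 in SKOV-3. Over all protein-coding genes the share was 51.1% in COLO-205, 60.5% in OVCAR-3, 59.8% in DU-145 and 31.6% in SKOV-3, against 42.9%, 28.6%, 57.1% and 42.9% of the 7 genes. No 2 lines had the same set. ZEB1 was marked in all 4 lines, a pattern held by 25.2% of protein-coding genes. SNAI1 was marked in every line but SKOV-3 (13% of genes share this pattern), and SNAI3 in COLO-205 and DU-145 (2.62%). TWIST2 was marked in DU-145 and SKOV-3 (0.402%) and TWIST1 in SKOV-3 alone (0.283%). With windows of 2500 bp TWIST2 was marked in COLO-205 as well, and with windows of 500 bp SNAI3 was marked in DU-145 alone. ZEB2 and SNAI2 had no promoter peak in any line, as for 25% of genes.

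When each list was reduced to its 14001 highest peaks by −log10 q, the length of the SKOV-3 list, COLO-205 had a promoter peak at none of the 7 genes and OVCAR-3 only at SNAI1. DU-145 then still had ZEB1, SNAI1, SNAI3 and TWIST2, and SKOV-3 had ZEB1, TWIST1 and TWIST2. The share over all genes at this number of peaks was 21.8% in COLO-205, 37.9% in OVCAR-3, 37.8% in DU-145 and 31.6% in SKOV-3.

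**Figure D1:**
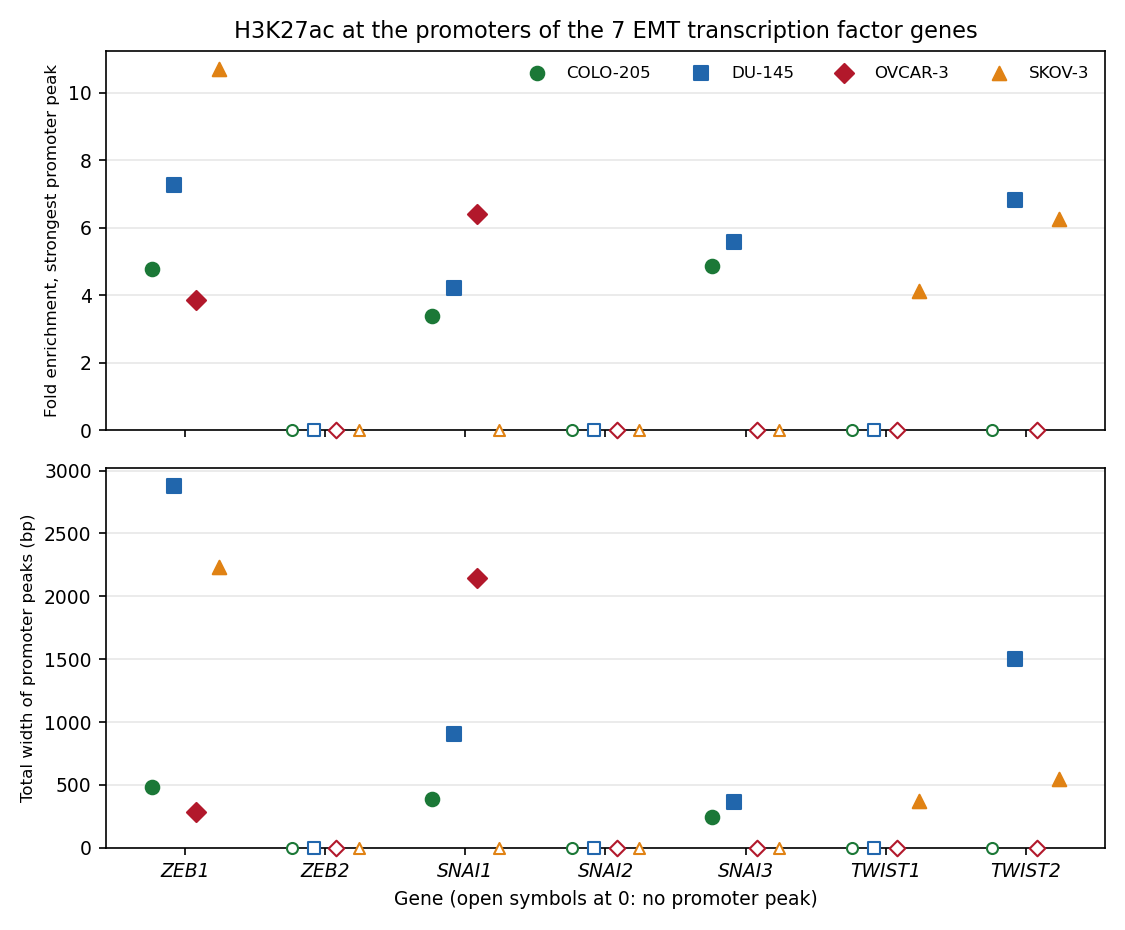
Promoter H3K27ac of the 7 genes (horizontal axis) in the 4 lines, as the fold enrichment of the strongest promoter peak over the local background (upper panel) and the summed width of all promoter peaks in bp (lower panel), with 1 library per point and open symbols at 0 where no promoter peak was called. ZEB1 reached 10.7 in SKOV-3 and 7.27 in DU-145, against 4.79 in COLO-205 and 3.87 in OVCAR-3, and ZEB2 and SNAI2 have open symbols in every line.

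ZEB1 lies on chromosome 10 (31607424-31818742, plus strand) and has 21 annotated starts, and the antisense RNA gene ZEB1-AS1 starts in the same stretch. Its promoter held a peak in every line, and the peaks fell into an upstream and a downstream block around the canonical start at 31608145. In DU-145 and SKOV-3 the blocks lie under 350 bp apart, so the merging distance stated for the study would join them into 1 peak. The upstream block was shared by the 4 lines and its summits lie in an exon of ZEB1-AS1. By the annotation of ZEB1 itself the summit is in an intron in DU-145 and SKOV-3 and in a non-coding exon in COLO-205 and OVCAR-3. Every promoter peak of ZEB1, in both blocks, also lies at a start of ZEB1-AS1, and the acetylation of these genes cannot be told apart.

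The upstream peak spanned 31607395-31607881 in COLO-205 with a fold enrichment of 4.79 and 1.24 RPM at its summit (95% Poisson interval 0.874 to 1.71). In OVCAR-3 it spanned 31607606-31607889 with a fold enrichment of 3.87 and 1.05 RPM (0.737 to 1.46). In DU-145 it spanned 31607071-31607952 with a fold enrichment of 5.97 and 1.81 RPM (1.39 to 2.30). In SKOV-3 it spanned 31607220-31607987 with a fold enrichment of 7.90 and 2.05 RPM (1.5 to 2.74). At this block the summit heights of the lines had overlapping intervals in most pairs, and those of OVCAR-3 and SKOV-3 did not overlap.

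The downstream block, by contrast, was called in DU-145 and SKOV-3 only. In DU-145 it was a single peak of 1994 bp (31608201-31610194) with a fold enrichment of 7.27, at a −log10 q of 23.5. In SKOV-3 it was a peak of 1268 bp (31608151-31609418) with a fold enrichment of 10.7, at a −log10 q of 34.0, followed by a peak of 199 bp with a fold enrichment of 5.79. No promoter peak of COLO-205 or OVCAR-3 reached past 31607889. Summed over the promoter, H3K27ac covered 487 bp in COLO-205, 284 bp in OVCAR-3, 2876 bp in DU-145 and 2235 bp in SKOV-3. Among the protein-coding genes with a promoter peak in the same library, this width stood at percentile 41.7 in COLO-205, 7.34 in OVCAR-3, 90.6 in DU-145 and 98.6 in SKOV-3. The fold enrichment stood at percentile 58.2, 8.46, 88.9 and 97.3 in the same order. The promoter shared by ZEB1 and ZEB1-AS1 was thus broad and high for its library in DU-145 and SKOV-3, and narrow and low for its library in OVCAR-3. The tag pileup at the summit of highest fold enrichment gave another order, with percentile 42.8 in COLO-205, 11.6 in OVCAR-3, 24.6 in DU-145 and 76.5 in SKOV-3. In DU-145 that is the downstream summit with 1.25 RPM, whereas the upstream summit held 1.81 RPM, and the median over marked promoters was 1.75.

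The sequences around both blocks are shown because the first was marked in every line and the second in DU-145 and SKOV-3 only. They are GRCh37 plus strand, read around the SKOV-3 summits, and the second was shortened to leave out untranslated bases. The search was for the E-box CAGGTG, read on both strands (CACCTG on the other), and any match would be in capitals. Neither stretch holds one.
ZEB1 upstream block, chr10:31607528-31607827: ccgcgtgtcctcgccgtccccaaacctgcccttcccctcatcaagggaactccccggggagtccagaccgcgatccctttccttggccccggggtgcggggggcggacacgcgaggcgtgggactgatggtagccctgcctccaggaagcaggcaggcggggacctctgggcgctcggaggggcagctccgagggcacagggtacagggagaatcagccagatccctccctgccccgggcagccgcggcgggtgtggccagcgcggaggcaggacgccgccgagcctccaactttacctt
ZEB1 downstream block, chr10:31608222-31608441: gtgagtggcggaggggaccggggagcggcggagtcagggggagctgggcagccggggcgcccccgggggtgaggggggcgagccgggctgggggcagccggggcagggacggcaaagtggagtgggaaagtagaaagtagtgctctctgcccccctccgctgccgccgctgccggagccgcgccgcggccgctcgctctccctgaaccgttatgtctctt
Both are GC-rich, with 71.0% and 74.1% G and C. For comparison, the median over 22199 RefSeq promoters of 300 bases was 62.3%.

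RefSeq promoter sequences (GRCh38.p14) matched 3 of the 7 genes, namely ZEB1, ZEB2 and TWIST2. ZEB1 has 7 such promoters, and the one of the canonical start (31607895-31608194 when its sequence is matched to GRCh37) holds 3 CAGGTG matches on either strand, where 19.9% of all promoters hold at least 1 and 0.559% at least 3. It falls between the blocks, and peaks of DU-145 and SKOV-3 overlap part of it while those of COLO-205 and OVCAR-3 do not. The first 159 bases are shown, which end before the annotated untranslated bases, with the match in capitals.
ZEB1 promoter, chr10:31607895-31608053: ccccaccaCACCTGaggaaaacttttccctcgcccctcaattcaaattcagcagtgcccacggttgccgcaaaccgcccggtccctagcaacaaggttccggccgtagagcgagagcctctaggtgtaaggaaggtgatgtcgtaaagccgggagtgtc
Only 1 of the 3 matches lies in the stretch shown. Of the other ZEB1 promoters, only the one at 31607096-31607395 holds a match, and it holds 1. Upstream peaks of COLO-205, DU-145 and SKOV-3 overlap part of that promoter. A match is a description of the letters and not a bound site.

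Away from the promoter, the ZEB1 locus was nearly empty. The single distal peak was in SKOV-3, in an intron 148 kb downstream of the canonical start (31756173-31756393), with a fold enrichment of 5.51, at a −log10 q of 6.26. The other lines had no distal peak over the 311 kb searched. The genes with the most similar ranks of promoter fold enrichment over the 4 lines were ITPR3, an inositol trisphosphate receptor, at a Euclidean distance of 12.7 percentile points, then CLMP at 15.1 and G2E3 at 19.8.

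ZEB2, the paralogue of ZEB1, lies on chromosome 2 (145121931-145278624, minus strand) and has 46 annotated starts. No line had a peak in its promoter windows, which add up to 26.6 kb, and none had a distal peak. The peaks nearest to it lie at starts of other genes, and position alone does not tell which gene they act on. DU-145 and OVCAR-3 each had 2 peaks, and SKOV-3 had 1, at the start of GTDC1 about 188 kb from the ZEB2 start, with fold enrichments from 2.52 to 6.54. COLO-205 had 1 peak (145281788-145282142) at the starts of the non-coding RNA genes LINC01412 and LINC02993, 4.33 kb upstream, with a fold enrichment of 5.78. The 1 Mb on either side was also bare, with 0.15 peaks per 100 kb in COLO-205 and 0 in the other lines. The RefSeq promoter of ZEB2 has 49.0% G and C, at percentile 18.3 of all promoters, a CpG ratio of 0.782 and no CAGGTG match.

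SNAI1 (Snail), which represses CDH1 directly, lies on chromosome 20 (48599517-48605423, plus strand) and has 1 annotated start. Its promoter was marked in every line but SKOV-3. A peak just downstream of the start was common to these lines, with a fold enrichment of 3.39 in COLO-205 (48599596-48599980), 5.26 in OVCAR-3 (48599551-48600188) and 4.23 in DU-145 (48599512-48600091). A further peak upstream of the start was shared by DU-145 (48599043-48599364, fold enrichment 3.76) and OVCAR-3 (48598755-48599352, fold enrichment 6.42), and OVCAR-3 alone had another beyond it (48597769-48598675, fold enrichment 3.51). SKOV-3 had no peak within 50 kb of the gene on either side. At the strongest promoter summit the RPM were 1.64 in COLO-205 (1.22 to 2.17), 2.69 in OVCAR-3 (2.17 to 3.30) and 2.17 in DU-145 (1.71 to 2.70). COLO-205 was the lowest and OVCAR-3 the highest, and their intervals barely overlapped. The OVCAR-3 value is from its upstream peak, and those of COLO-205 and DU-145 are from the downstream one. At the downstream peak OVCAR-3 held 2.25 RPM (1.78 to 2.81), and the intervals of these lines overlapped. Within each library the fold enrichment of the strongest promoter peak was modest, at percentile 13.4 in COLO-205, 39.4 in OVCAR-3 and 35.6 in DU-145. The tag pileup at the same summit ranked higher, at percentile 66.8, 56.7 and 69.2 in that order.

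**Figure D2:**
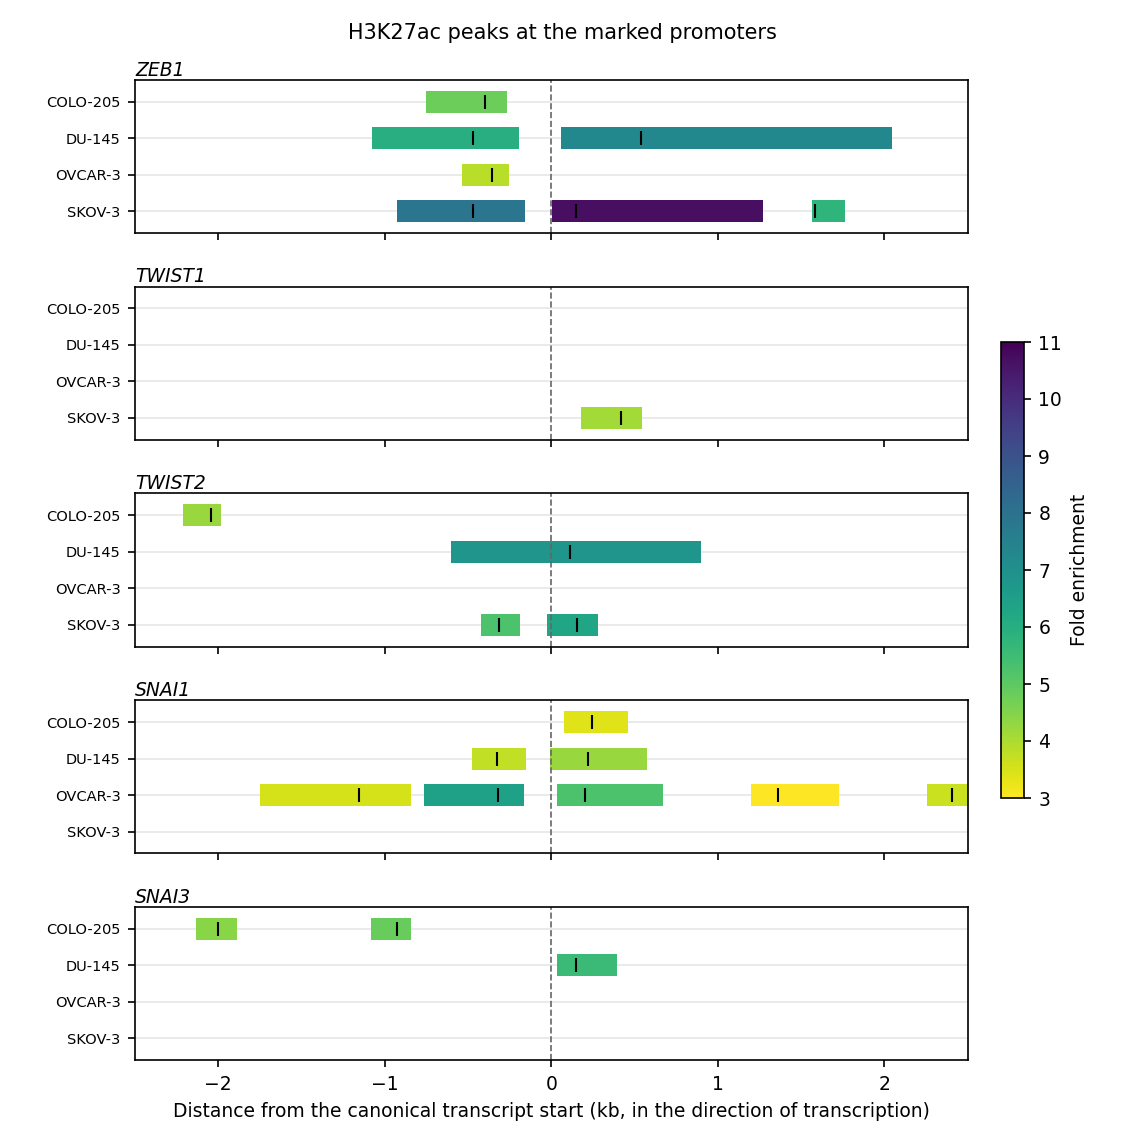
H3K27ac peaks within 2.5 kb of the canonical start of the 5 genes with a promoter peak, with 1 row per line and distance in kb in the direction of transcription; bars span the peaks, their colour gives the fold enrichment, black ticks mark summits and the dashed line the start. ZEB1 has an upstream block in all 4 lines and a downstream block in DU-145 and SKOV-3 only, and the single TWIST1 peak is in SKOV-3.

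The surroundings of SNAI1 ranged from bare to densely marked. Distal peaks numbered 16 in COLO-205, 67 in OVCAR-3, 3 in DU-145 and 0 in SKOV-3. Per 100 kb searched this is 15.1, 63.3, 2.83 and 0 peaks, and in OVCAR-3 the density was at percentile 99.9 over all protein-coding genes, compared with 95.7 in COLO-205 and 69.0 in DU-145. At equal numbers of peaks SNAI1 kept 1 distal peak in COLO-205, 2 in OVCAR-3 and 0 in DU-145. At least 1 distal peak was found near 71.6% of all genes in COLO-205, 56.7% in OVCAR-3, 61.2% in DU-145 and 19.7% in SKOV-3.

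The OVCAR-3 distal peaks had fold enrichments from 2.37 to 6.55 with a median of 4.25. The strongest (48595604-48596252, 3.67 kb upstream) had a −log10 q of 56.7 and 3.63 RPM. The strongest in COLO-205 (48590795-48591082, 8.57 kb upstream) had a −log10 q of 14.1 and overlapped an OVCAR-3 peak. In DU-145 the strongest (48650797-48651332, 51.6 kb downstream) had a −log10 q of 15.9 and overlapped an OVCAR-3 peak too. Of the COLO-205 distal peaks 11 of 16 overlapped an OVCAR-3 peak, and of the 67 OVCAR-3 peaks 12 overlapped a peak of another line. A region about 47 kb downstream of the start held a peak in all 3 lines (48646641-48646890 in COLO-205, 48644934-48647013 in OVCAR-3, 48646627-48647000 in DU-145), with fold enrichments of 2.81, 5.35 and 2.76.

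The high density was not limited to SNAI1. The 1 Mb on either side of its search window held 14.3 peaks per 100 kb in COLO-205, 34.0 in OVCAR-3, 6.65 in DU-145 and 1.35 in SKOV-3. The mean over chromosome 20 was 8.25, 4.54, 1.94 and 0.594 peaks per 100 kb, and over the whole list 2.77, 2.46, 2.44 and 0.453. In OVCAR-3 peaks covered 32.8% of the SNAI1 search window, against 6.16% in COLO-205, 3.41% in DU-145 and 0% in SKOV-3. The flanks were thus denser than the chromosome and the list in every line, and the part of the region in the counts at SNAI1 was not tested. Copies of the region and acetylation per copy cannot be told apart in these lists. TMEM52, KRT86 and ACCS had promoter ranks closest to SNAI1, at distances of 3.31, 4.02 and 4.18 percentile points over the 4 lines.

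**Figure D3:**
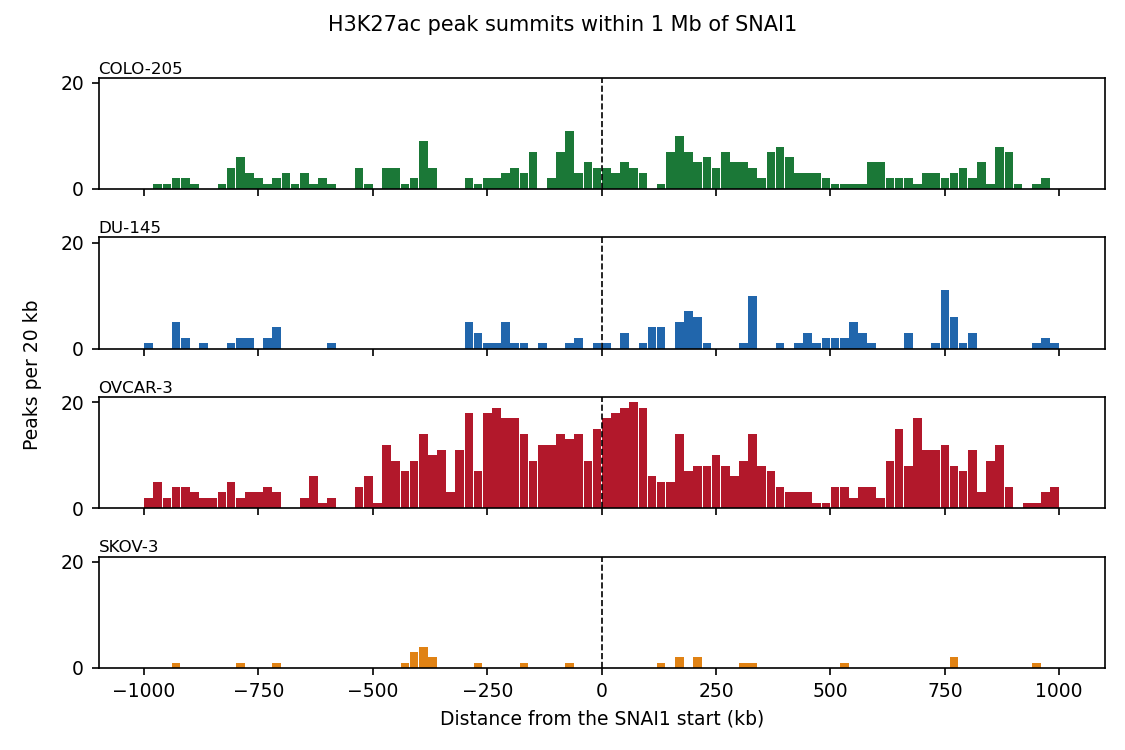
Number of H3K27ac peak summits in bins of 20 kb (vertical axis) within 1 Mb of the SNAI1 start (horizontal axis, kb), with 1 panel per line and the dashed line at the start. OVCAR-3 reaches 20 peaks in a bin close to SNAI1 and has high bins through much of the region, while SKOV-3 has 0 in the bins next to the gene.

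SNAI2 (Slug), the second Snail protein, lies on chromosome 8 (49830157-49834299, minus strand). No line had a peak at its 3 annotated starts. Distal peaks were found in COLO-205, 38.2 kb downstream (49795647-49795906, fold enrichment 4.42) and 25 kb upstream (49858894-49859127, fold enrichment 6.25), and in DU-145, 43.2 kb downstream (49790622-49790877, fold enrichment 3.51). These did not overlap each other, and OVCAR-3 and SKOV-3 had none. Their −log10 q was 9.55 and 10.1 in COLO-205 and 5.51 in DU-145.

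SNAI3, the third Snail gene, lies on chromosome 16 (88744096-88752915, minus strand) and has 1 annotated start. It had a promoter peak in COLO-205 (88753755-88754000) and in DU-145 (88752519-88752883), but these do not overlap. The COLO-205 peak had its summit 926 bp upstream of the start, near the edge of the window, with a fold enrichment of 4.87 and 0.973 RPM (0.652 to 1.40). The DU-145 peak had its summit 151 bp downstream, in a coding exon and at a start of the antisense gene SNAI3-AS1, with a fold enrichment of 5.57 and 1.72 RPM (1.32 to 2.21). OVCAR-3 and SKOV-3 had no promoter peak.

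The SNAI3 locus is dense in genes, and many peaks there lie at starts of neighbours. Peaks at the starts of other genes numbered 9 in COLO-205, 2 in OVCAR-3, 6 in DU-145 and 3 in SKOV-3, and the start of CYBA, which encodes a subunit of NADPH oxidase, was marked in all 4 lines. Distal peaks numbered 7 in COLO-205 and 3 in OVCAR-3 and were absent in the other lines. The strongest was at 88748512-88748831 in COLO-205, with a −log10 q of 9.92, and at 88700642-88700891 in OVCAR-3, with 11.1. None overlapped a distal peak of another line. KRT3, FSCN1 and CGAS had the most similar promoter ranks, at distances of 3.8, 3.81 and 3.84 percentile points.

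TWIST1, which drives mesoderm and neural crest programmes in development, lies on chromosome 7 (19060614-19157259, minus strand, 3 annotated starts). A peak was called in SKOV-3 only (19156711-19157081), with its summit 419 bp downstream of the start in the coding exon. The peak also lies at a start of another annotated gene, ENSG00000236536, and cannot be assigned to TWIST1 alone. Its fold enrichment was 4.12 and its −log10 q 5.61, and the summit held 20 tags or 0.893 RPM (0.545 to 1.38). Among the marked genes of SKOV-3 this is percentile 18.5 by fold enrichment and 3.21 by pileup, so it was a weak peak, and it is lost at a −log10 q of at least 10. The other lines had no peak over the 197 kb searched, and the flanking 1 Mb held between 0 and 0.4 peaks per 100 kb in the 4 lines. RUNX2, the runt factor of bone formation, had the closest promoter ranks at a distance of 0.770 percentile points, followed by ZNF729 at 1.74 and CAPS at 3.07. RUNX2 and ZNF729, like TWIST1, were marked in SKOV-3 alone.

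TWIST2 (Dermo1), the paralogue of TWIST1, lies on chromosome 2 (239756673-239832230, plus strand, 3 annotated starts). Its promoter was marked in DU-145 by a peak of 1502 bp across the start (239756125-239757626), with a fold enrichment of 6.83 and 1.5 RPM (1.13 to 1.96). In SKOV-3 it was marked by a pair of narrow peaks, 239756302-239756537 with a fold enrichment of 5.28 and 239756698-239757008 with 6.26. Both SKOV-3 summits held 27 tags or 1.21 RPM (0.794 to 1.75), so the intervals of the lines overlapped. The fold enrichment was at percentile 85.6 of marked genes in DU-145 and 69.9 in SKOV-3. By tag pileup at the summit of highest fold enrichment the promoter ranked low, at percentile 36.9 in DU-145 and 15.3 in SKOV-3. COLO-205 and OVCAR-3 had no promoter peak. The RefSeq promoter, with 66.7% G and C and a CpG ratio of 0.871, holds no CAGGTG match.

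The TWIST2 locus also held the only distal region of the 7 genes that was marked in all 4 lines. This peak lies in the intron, 16.6 kb downstream of the start, including in COLO-205 and OVCAR-3, where the promoter was not marked. Its fold enrichment was 5.77 in COLO-205, 6.67 in OVCAR-3, 5.86 in DU-145 and 8.40 in SKOV-3. Its summit held 1.88 RPM in COLO-205 (1.42 to 2.44), 2.60 in OVCAR-3 (2.09 to 3.20), 2.11 in DU-145 (1.66 to 2.64) and 2.19 in SKOV-3 (1.62 to 2.89), with intervals that overlap between all lines. By −log10 q it was among the strong distal peaks of each library, at percentile 95.8 in COLO-205, 94.6 in OVCAR-3, 98.3 in DU-145 and 96.1 in SKOV-3. By fold enrichment it ranked lower, at percentile 75.9, 76.1, 85.0 and 92.5 in that order. In OVCAR-3 it was the only peak within 50 kb of the gene body.

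Beyond the gene, SKOV-3 had a group of peaks that the other lines lacked. The strongest, 79.4 kb downstream of the start (239835726-239836364), had a fold enrichment of 9.05, at a −log10 q of 20.2, and neighbours at 239837459-239837693 and 239838340-239838537 had fold enrichments of 4.47 and 4.98. A weaker peak just before them was shared with COLO-205 (239832860-239833092 in SKOV-3, 239832832-239833045 in COLO-205). In total TWIST2 had 10 distal peaks in COLO-205, 1 in OVCAR-3, 4 in DU-145 and 5 in SKOV-3. The density in SKOV-3, 2.85 per 100 kb, was at percentile 97.2 of all protein-coding genes in that list.

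The intron sequence is shown as the region marked in every line and the downstream one as the strongest region marked in SKOV-3 alone (GRCh37, plus strand, around the summits of OVCAR-3 and SKOV-3). Matches to CAGGTG on either strand are in capitals.
TWIST2 intron, chr2:239773142-239773441: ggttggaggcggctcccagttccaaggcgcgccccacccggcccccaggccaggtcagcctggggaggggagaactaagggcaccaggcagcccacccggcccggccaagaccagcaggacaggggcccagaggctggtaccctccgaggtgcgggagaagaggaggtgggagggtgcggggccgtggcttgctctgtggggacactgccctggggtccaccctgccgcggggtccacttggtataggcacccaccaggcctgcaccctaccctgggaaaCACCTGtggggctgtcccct
TWIST2 downstream, chr2:239835999-239836298: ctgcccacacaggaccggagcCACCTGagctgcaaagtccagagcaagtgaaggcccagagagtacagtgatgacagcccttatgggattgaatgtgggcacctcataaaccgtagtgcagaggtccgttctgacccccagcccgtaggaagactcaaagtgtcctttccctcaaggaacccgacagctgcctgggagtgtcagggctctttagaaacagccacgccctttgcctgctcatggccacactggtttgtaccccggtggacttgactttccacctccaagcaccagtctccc
Each holds 1 match, where between 41.5% and 47.3% of the 300-base windows around distal summits hold at least 1 in the 4 lists. Neither holds the AP-1 sequence TGAGTCA, which is present in 3.31% to 5.57% of such windows. HYLS1, CPEB2 and MT2A had the promoter ranks most similar to those of TWIST2, at distances of 9.28, 9.90 and 10.5 percentile points.

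**Figure D4:**
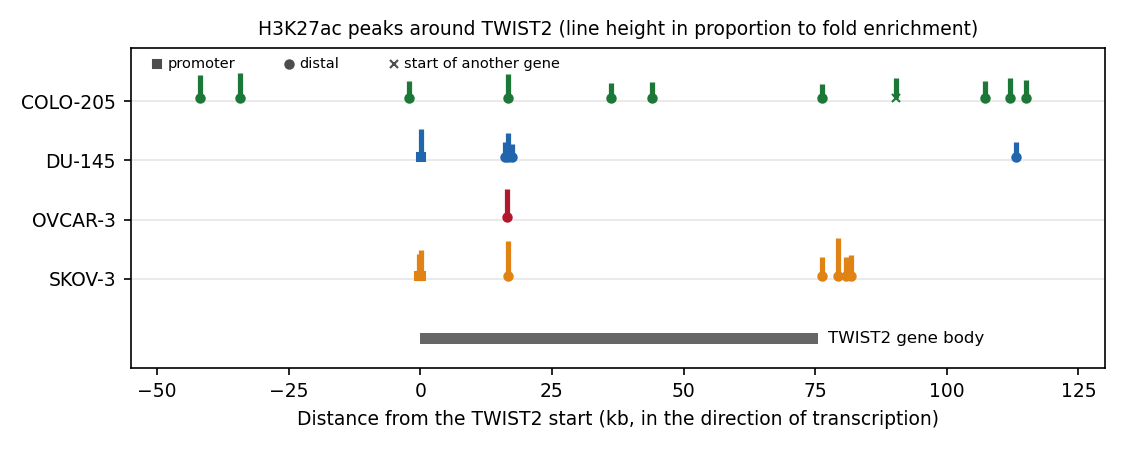
H3K27ac peaks around TWIST2 in the 4 lines by distance from the start in kb; line height is in proportion to the fold enrichment, and the symbols separate promoter peaks, distal peaks and peaks at the start of another gene. The intron peak 16.6 kb downstream is present in every line, promoter peaks are present in DU-145 and SKOV-3, and the group near 79.4 kb is seen in SKOV-3.

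Over the 7 genes there were 35 distal peaks in COLO-205, 71 in OVCAR-3, 8 in DU-145 and 6 in SKOV-3. Without SNAI1 there were 19, 4, 5 and 6, so SNAI1 accounted for most of the OVCAR-3 count. At equal numbers of peaks the 7 genes had 2, 3, 1 and 6, with the SKOV-3 list left whole. These peaks lay near 2, 2, 1 and 2 of the 7 genes, and 14%, 15.7%, 17.3% and 19.7% of all genes then had a distal peak. Of all distal peaks of the 7 genes, the share overlapping another line's peak was 37.1% in COLO-205, 18.3% in OVCAR-3, 37.5% in DU-145 and 33.3% in SKOV-3. Without SNAI1 it was 10.5%, 25%, 20% and 33.3%. Over all distal peaks of the lists it was 15.1%, 27.4%, 24.6% and 64.0%. Without SNAI1 the shares rest on 2 of 19, 1 of 4, 1 of 5 and 2 of 6 peaks, and no difference from the lists is read from them.

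The genes on the epithelial side were compared as a list of 10 genes. COLO-205 had a promoter peak at all 10, OVCAR-3 at 9, DU-145 at 7 and SKOV-3 at 1. Of all protein-coding genes 51.1%, 60.5%, 59.8% and 31.6% had one, so DU-145 was near its background. SKOV-3 had none at CDH1 (E-cadherin), EPCAM, CRB3, CLDN7, ELF3, ESRP1, GRHL2, OVOL1 or OVOL2, and its single marked gene was the splicing regulator ESRP2, with a fold enrichment of 4.68. When the lists were cut to equal numbers of peaks, the counts were 9, 7, 6 and 1 of 10, against 21.8%, 37.9%, 37.8% and 31.6% of all genes. CDH1 had a fold enrichment of 6.03 in COLO-205, 5.53 in OVCAR-3 and 4.94 in DU-145. EPCAM, an epithelial adhesion molecule, had 7.07, 8.49 and 5.91 in the same lines. GRHL2 and OVOL2, which oppose EMT and repress ZEB1, were marked in COLO-205 (11.3 and 4.60) and OVCAR-3 (19.3 and 7.16) and not in DU-145 or SKOV-3. OVOL1 was marked in COLO-205 alone, with a fold enrichment of 5.63. ELF3, ESRP1, CLDN7 and CRB3 were marked in every line but SKOV-3, with fold enrichments from 3.85 to 16.9.

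Of 10 mesenchymal genes, 4 had a promoter peak in COLO-205, 3 each in DU-145 and OVCAR-3, and 5 in SKOV-3. VIM (vimentin), the intermediate filament of mesenchymal cells, was marked in DU-145 (7.01-fold) and SKOV-3 (9.06-fold) only. FN1 (fibronectin) was marked in OVCAR-3 (5.63-fold) and SKOV-3 (5.45-fold), SPARC in COLO-205 (2.82-fold) and SKOV-3 (6.22-fold), and FOXC2 in COLO-205 (3.92-fold). AXL and TNC were marked in every line, and CDH2, MMP2, PRRX1 and CDH11 in none. AXL had a fold enrichment of 9.74 in DU-145 and 8.26 in SKOV-3, against 2.89 in COLO-205 and 2.64 in OVCAR-3. TNC had 6.13 in COLO-205, 14.2 in OVCAR-3, 6.02 in DU-145 and 4.72 in SKOV-3. The share of mesenchymal genes with a peak was above that of all protein-coding genes in SKOV-3 and below it in the other lines. At equal numbers of peaks the counts were 1 in COLO-205 (TNC), 1 in OVCAR-3 (TNC), 3 in DU-145 and 5 in SKOV-3, against 21.8%, 37.9%, 37.8% and 31.6% of all genes in the order COLO-205, OVCAR-3, DU-145 and SKOV-3.

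Of the 10 genes of inducing pathways, 7 had a promoter peak in COLO-205, 9 in OVCAR-3, 10 in DU-145 and 8 in SKOV-3. Each of these shares is above that of all protein-coding genes (51.1%, 60.5%, 59.8% and 31.6%). TGFBR1 and TGFBR2, the receptors of TGF-beta, were marked in every line, as were SMAD2, SMAD3, NOTCH1, JAG1 and HMGA2. SMAD4, the common partner of the receptor SMADs, was not marked in COLO-205 and had fold enrichments of 9.38 in OVCAR-3, 4.95 in DU-145 and 7.10 in SKOV-3. Of the ligands, TGFB1 was marked in DU-145 (4.67-fold) and TGFB2 in DU-145 (6.2-fold) and OVCAR-3 (9.53-fold). Of the 10 E proteins and co-repressors, 9, 10, 9 and 7 were marked in the same order, also above those shares. TCF4, an E protein and partner of TWIST, was marked in OVCAR-3 alone (25.3-fold). The histone methyltransferase EZH2 and the deacetylase HDAC1 were marked in every line but SKOV-3.

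**Figure D5:**
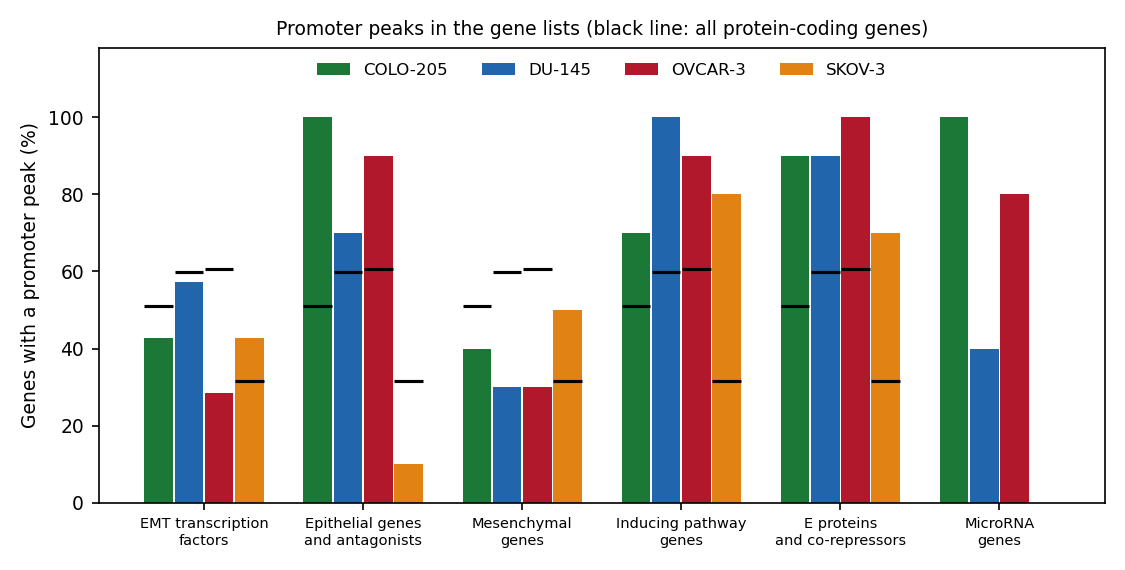
Percentage of genes with a promoter peak (vertical axis) among the 7 EMT transcription factors and the 5 lists (horizontal axis), with 1 bar per line and, except for the microRNA genes, a black line at the share of all protein-coding genes in that line. The epithelial list stands at 100% in COLO-205 and 10% in SKOV-3, where the background is 51.1% and 31.6%.

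The miR-200 genes form 2 clusters, miR-200b, miR-200a and miR-429 on chromosome 1 and miR-200c and miR-141 on chromosome 12. Of these 5 genes, all 5 had a peak within 1 kb of the annotated gene start in COLO-205, 4 in OVCAR-3, 2 in DU-145 and 0 in SKOV-3. At equal numbers of peaks the counts were 4, 2, 2 and 0. The annotated start is that of the hairpin, so the shares of protein-coding genes are no direct background for it. The mature sequences are shown because they pair with ZEB1 and ZEB2 transcripts through the seed, bases 2 to 8, which is in capitals (RefSeq, GRCh38.p14).
miR-141-3p: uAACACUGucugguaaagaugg
miR-200a-3p: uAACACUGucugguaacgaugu
miR-200b-3p: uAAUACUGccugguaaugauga
miR-200c-3p: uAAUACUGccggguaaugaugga
miR-429: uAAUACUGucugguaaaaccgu
The first pair share the seed AACACUG and the other 3 share AAUACUG, so each cluster holds both seeds.

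Over the miR-200c and miR-141 cluster, a peak at 7072371-7073304 in COLO-205 had a fold enrichment of 7.48, at a −log10 q of 51.6. The peak in DU-145 (7070831-7073514) had 4.72 and 23.7, and that in OVCAR-3 (7070536-7073522) had 15.0 and 171. In SKOV-3 the nearest peak was 35636 bp away from miR-200c. At miR-200b (chromosome 1, 1102484-1102578) a peak overlapped the gene in COLO-205, and the nearest peak was 138 bp away in OVCAR-3, 1152 bp in DU-145 and 1420 bp in SKOV-3. The chromosome 12 cluster thus lacked a nearby peak in SKOV-3 only, the line with the highest fold enrichment at ZEB1 and the shortest list. DU-145, which came next at ZEB1 with a fold enrichment of 7.27, did have a peak over this cluster. With 1 library in each line, and many differences between the lines, this side-by-side pattern was not tested.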

How the data were processed

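H3K27ac ChIP-seq peak lists of 4 cell lines, 1 library each, were used. Reads had been aligned by the authors to hg19 (Bowtie2 2.1.0), and narrow peaks had been called library by library (MACS2 2.1.0.20150603, q-value threshold 0.001). For every peak the deposited lists give a score, a ratio (fold enrichment relative to local background), −log10 p, −log10 q and the summit offset, with no scaling across libraries. A merge of peaks closer than 350 bp is described in the study, but closer neighbours remain in the lists, which were used unmerged.

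The whole-number tag pileup at each summit was solved from the fold enrichment and the −log10 p within 0.001, and scaled to 1000000 ChIP tags (RPM), whose number was taken from the lowest background and 2.7e+09 genome positions. At least 99.9% of summits were solved, and the step was tested on simulated data. Intervals are exact Poisson 95%. Percentiles of fold, width and pileup are over protein-coding genes with a promoter peak in the same list. Windows used every transcript start of GENCODE 44 lifted to GRCh37, and overlap meant at least 1 bp. Motifs were counted on both strands.

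The members and lists were chosen with earlier results of these data known. Named were all 7 genes, the 3 genes most like each marked gene, list genes marked in some lines only, the distal peak of highest −log10 q per gene and line, and distal regions shared by at least 3 lines. List genes marked in every line or in none are also named in places, chosen after their values were seen. With 1 library per line, no statistical test was made. Alternatives changed the window, the distance, the peak threshold, merging and the number of peaks. The tools were matplotlib 3.10.9, pandas 2.3.3, scipy 1.17.1, numpy 2.4.6 and Python 3.11.15. MIR205, RNA-seq and mutation calls were not analysed here. The result for 1 prostate marker is not reported here.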

Additional observations from a re-analysis of the deposited data

How the results depend on the processing

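The number of the 7 genes with a promoter peak moved by over 1.5 times in OVCAR-3 at a −log10 q of at least 10 (1, SNAI1) and, at equal numbers of peaks, in COLO-205 (0) and OVCAR-3 (1, SNAI1). Other windows, protein-coding transcripts only, merging, summits and a −log10 q of at least 5 left these counts within that range, with SNAI3 lost in COLO-205 at 500 bp and TWIST2 gained there at 2500 bp. Distal counts moved more. Within 20 kb they were 17 in COLO-205, 33 in OVCAR-3 and 3 in DU-145, and within 100 kb 78, 149 and 19. With peaks at the starts of other genes they were 18 in DU-145 and 10 in SKOV-3. At a −log10 q of at least 10 they were 8 in COLO-205, 26 in OVCAR-3, 2 in DU-145 and 2 in SKOV-3, and at equal numbers of peaks 2 in COLO-205, 3 in OVCAR-3 and 1 in DU-145. Merging left 5 in DU-145. Leaving out SNAI1, an alternative chosen after seeing the data, left 19 in COLO-205, 4 in OVCAR-3 and 5 in DU-145. These alternatives count fewer or more bases, peaks or genes by construction. Equal numbers of peaks for the lists, also chosen after seeing the data, gave 1 mesenchymal gene in COLO-205 and 1 in OVCAR-3, and 2 microRNA genes in OVCAR-3. In the other 59 comparisons the counts stayed within 1.5 times. The fold enrichment of the strongest promoter peak kept its value in 24 comparisons, made only with protein-coding transcripts and with summits inside the window. No paired analysis was possible because each line has a single library. The depth of SKOV-3, 22400000 ChIP tags, and its short list limit what can be read from a missing peak in that line.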
